A study of Mus musculus with 4 samples.

Results

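The 9 genes described here are the STING adaptor Tmem173, its kinase Tbk1 and the transcription factor Irf3, the type I interferon receptor chains Ifnar1 and Ifnar2, the factors Stat2 and Irf9 that carry the type I signal to the nucleus, and the type II interferon receptor chains Ifngr1 and Ifngr2. They are 9 of the 31053 gene rows of each library, were matched by symbol, and all 9 were found in all 4 libraries. The 9 were chosen on earlier results of these data, in which Tmem173 and Ifngr2 were higher in Csf1r+/- than in WT microglia, so the microglial genotype values are given as a description with no test.

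STING sits in the membrane of the endoplasmic reticulum and is activated by the cyclic dinucleotide that cGAS makes when it meets DNA in the cytosol. Activated STING recruits TBK1, which phosphorylates IRF3, and IRF3 turns on type I interferon genes. Type I interferons bind a receptor made of IFNAR1 and IFNAR2, whose kinases phosphorylate STAT2, which acts with IRF9 in the complex ISGF3. Interferon-γ binds a separate receptor of IFNGR1 and IFNGR2. In the brain, microglia are known to carry STING, and endothelial cells are known to respond to circulating interferons.

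Nuclei were isolated from whole brains of 2-month-old female mice of the strain C57/BL6, either wild type (WT) or heterozygous for a germline inactivation of Csf1r (Csf1r+/-, HET), the receptor that microglia need for survival. No treatment was given, the mice were perfused with heparinised saline, the isolation used no detergent, and myelin debris was removed with immunomagnetic beads. RNA was counted by the droplet-based 10x Genomics 3′ method, and 2 libraries per genotype were used, with the remaining libraries of the study not analysed here. The heterozygous mice carried 1 inactive copy of the gene in every cell and not in microglia alone; the study chose this age as one before symptoms.

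The libraries held 9905 to 16415 nuclei and 89436507 to 112226479 UMIs (unique molecular identifiers, each standing for 1 captured transcript). Of these, 52132 nuclei with 500 to 50000 UMIs, over 200 genes and under 5% mitochondrial UMIs were kept, with medians of 4636 to 7454 UMIs per nucleus. Between 35 and 75 barcodes were shared by each pair of libraries. The nuclei fell into 56 clusters, which were named from fixed marker lists as microglia-like (719 nuclei), endothelial-like (603), oligodendrocyte-like (2253), excitatory neuron-like (26346) and inhibitory neuron-like (15826), the ending being left out from here on. A further 7.01% of nuclei stayed unnamed.

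Csf1r was checked first because it is the targeted gene. In microglial nuclei it had 198 and 251 UMIs in WT1 and WT2 and 156 and 118 in HET1 and HET2, or 841, 672, 564 and 573 counts per 1000000 UMIs of that class and library (CPM), so that both Csf1r+/- libraries lay below both WT libraries. In excitatory neurons the order was the opposite, with 23 and 57 UMIs in WT1 and WT2 and 207 and 266 in HET1 and HET2, or 0.349, 1.28, 3.74 and 4.51 CPM. The 12 microglia markers summed to 9509 to 17591 CPM in microglial nuclei and to at most 271 CPM in endothelial, oligodendrocyte and neuronal nuclei. The 14 endothelial markers summed to 14359 to 20452 CPM in endothelial nuclei. The 10 mural markers summed to 4436 to 6543 CPM in the same nuclei, so the endothelial levels below are those of a class that also holds mural RNA.

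The coordinates are those of the mouse build GRCm38, which the submitters call mm10. Ifnar2 (chr16:91372783-91405589), Ifnar1 (chr16:91485238-91507441) and Ifngr2 (chr16:91547072-91565623) lie in this order on the forward strand, 79648 and 39630 bases apart, so that 3 of the 4 receptor chains share 1 stretch of chromosome 16. Ifngr1 (chr10:19591949-19610229), Tbk1 (chr10:121546455-121586787, reverse strand) and Stat2 (chr10:128270559-128292849) are on chromosome 10, Irf3 (chr7:44997648-45002848) is on chromosome 7 and Irf9 (chr14:55603571-55610030) on chromosome 14. Annotated gene bodies overlap for 3 members: Irf3 shares 1065 bases with Bcl2l12 on the other strand, Irf9 shares 123 bases with Rnf31 on its own strand, and Ifnar2 shares 13869 bases with Gm21970 on its own strand. How reads in these stretches were assigned is not given in the sources used here, so the counts of Irf3, Irf9 and Ifnar2 are uncertain by the reads that fall there.

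Promoters were searched for the letters that the interferon pathway itself is known to read, on both strands, since several members are themselves targets of the signal that they carry. The core of the interferon-stimulated response element (GAAANNGAAA), which ISGF3 binds, was in 3.44% of all 32851 RefSeq promoter windows (GRCm38.p6) of 250 bases before to 50 bases after the start, and the gamma-activated site (TTCNNNGAA), known from interferon-γ target genes, in 8.30%. A window was at hand for 8 of the 9 members, and a match to either motif was found in 3 of them. The Stat2 and Ifnar2 matches lie before the start and are printed with 25 bases on each side, forward strand, with the match in capitals. The Ifnar1 match to the gamma-activated site spans the start itself. A match describes letters in the window and does not show a bound site.
Stat2 (chr10:128270251-128270310, response element core read on the reverse strand): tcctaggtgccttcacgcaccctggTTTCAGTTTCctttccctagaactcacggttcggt
Ifnar2 (chr16:91372544-91372602, gamma-activated site): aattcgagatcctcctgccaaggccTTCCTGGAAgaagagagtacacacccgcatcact

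The members differed in the class where they were highest. Of the 5 classes compared, Tmem173, Tbk1, Ifngr1 and Ifngr2 were highest in microglial nuclei, and Ifnar1, Stat2 and Irf9 were highest in endothelial nuclei, each with all 4 libraries above those of the next class, while for Irf3 and Ifnar2 the 2 highest classes overlapped. These orders are descriptions, since the classes were made from the same nuclei. Levels were summed over all nuclei of a class and scaled to its UMIs, so the orders are not orders per nucleus. These sums alone cannot tell apart a lower share of nuclei with the transcript and less of it per nucleus.

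Tmem173, on chromosome 18, was a microglial transcript among the 5 classes. Its mean level in microglial nuclei was 70.4 ± 29.1 CPM (SD, n = 4 libraries), and only 2 UMIs were counted in all 603 endothelial nuclei, 1 in WT1 and 1 in WT2. This is under the minimum of 10 counts for the fit, so that no genotype fold is given there. In neurons it stayed near 0, with 15 UMIs in 26346 excitatory and 7 UMIs in 15826 inhibitory nuclei. The share of microglial nuclei with at least 1 Tmem173 UMI was 4.81% in WT1 (95% Wilson interval 2.55 to 8.89), 8.21% in WT2 (5.19 to 12.8), 12.5% in HET1 (8.40 to 18.2) and 12.8% in HET2 (8.32 to 19.1), at medians of 1122, 1425, 1470 and 1222 UMIs per nucleus, and the intervals cover counting error only. Excitatory neurons, which should lack the transcript, had it in 0.0150% to 0.119% of nuclei at medians of 5768 to 9252 UMIs. When each microglial nucleus was thinned to 1000 UMIs, which kept 120, 169, 143 and 101 nuclei, the shares were 1.67%, 6.51%, 9.09% and 7.92%.

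Downstream of STING, Tbk1 was more even between classes. Its mean was 118 ± 17.9 CPM in microglial nuclei against 50.6 ± 7.83 in oligodendrocytes, 47.3 ± 20.8 in endothelial nuclei, 43.5 ± 1.06 in inhibitory and 42.1 ± 1.06 in excitatory neurons, and all 4 of the lower classes overlapped with their neighbours. Irf3 had no class of its own. Its mean was 33.4 ± 9.12 CPM in microglial, 29.4 ± 11 in endothelial, 20.4 ± 7.92 in oligodendrocyte, 15.8 ± 3.30 in inhibitory and 11 ± 2.91 CPM in excitatory nuclei, each overlapping with the next. Part of the spread of Irf3 came from WT1, which was the lowest of the 4 libraries in microglia (21.2 CPM), oligodendrocytes (11.1 CPM) and both neuron classes (7.42 and 10.9 CPM).

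Both chains of the type I receptor were highest in endothelial nuclei. Ifnar1 had 91, 37, 41 and 38 UMIs there in WT1, WT2, HET1 and HET2, a mean of 167 ± 29.0 CPM, which was 2.99 times its mean in microglial nuclei (55.9 ± 19.8) and without overlap. Ifnar2 had a mean of 153 ± 45.4 CPM in endothelial and 93.5 ± 31.3 in microglial nuclei, and these overlapped. Neither chain exceeded a mean of 20.6 CPM in oligodendrocytes or neurons.

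The factors of ISGF3 were also highest in endothelial nuclei. Stat2 averaged 63.7 ± 20.3 CPM in endothelial nuclei, 2.86 times oligodendrocytes (22.3 ± 4.75), with microglia (21.2 ± 11.1) and excitatory neurons (19.9 ± 1.41) overlapping behind them. Irf9 averaged 63.3 ± 13 CPM in endothelial nuclei against 20.7 ± 10.5 in microglia and 5.82 to 6.71 CPM in the other 3 classes. Within the endothelial class both were unequal between its 3 clusters: the smallest, of 96 nuclei, held Stat2 at 107 CPM and Irf9 at 87.6 CPM, the largest, of 364 nuclei, held them at 53.2 and 59.3 CPM, and the one with mural markers, of 143 nuclei, at 40.9 and 47.4 CPM. The small cluster made up 1.04% of the endothelial nuclei of WT1 and 21.3% to 34.2% of those of the other libraries.

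Of the 5 classes, microglia also held the most of both type II receptor chains. Ifngr1 averaged 257 ± 72.4 CPM in microglial nuclei, 5.76 times endothelial nuclei (44.6 ± 16.8), and at most 5.87 CPM in oligodendrocytes and neurons. Ifngr2 averaged 119 ± 46.7 CPM in microglial nuclei, 6.46 times endothelial nuclei (18.4 ± 13.5), with 10.4 ± 0.965 in excitatory and 9.73 ± 0.529 CPM in inhibitory neurons and 2.53 ± 2.07 in oligodendrocytes. The 37 nuclei of border macrophages, too few to be tested, also held both chains, Ifngr1 with 32 UMIs and Ifngr2 with 15, and their means of 278 and 146 CPM were above the microglial ones. Tmem173 stood at 65.5 CPM there, from 6 UMIs.

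**Figure D1:**
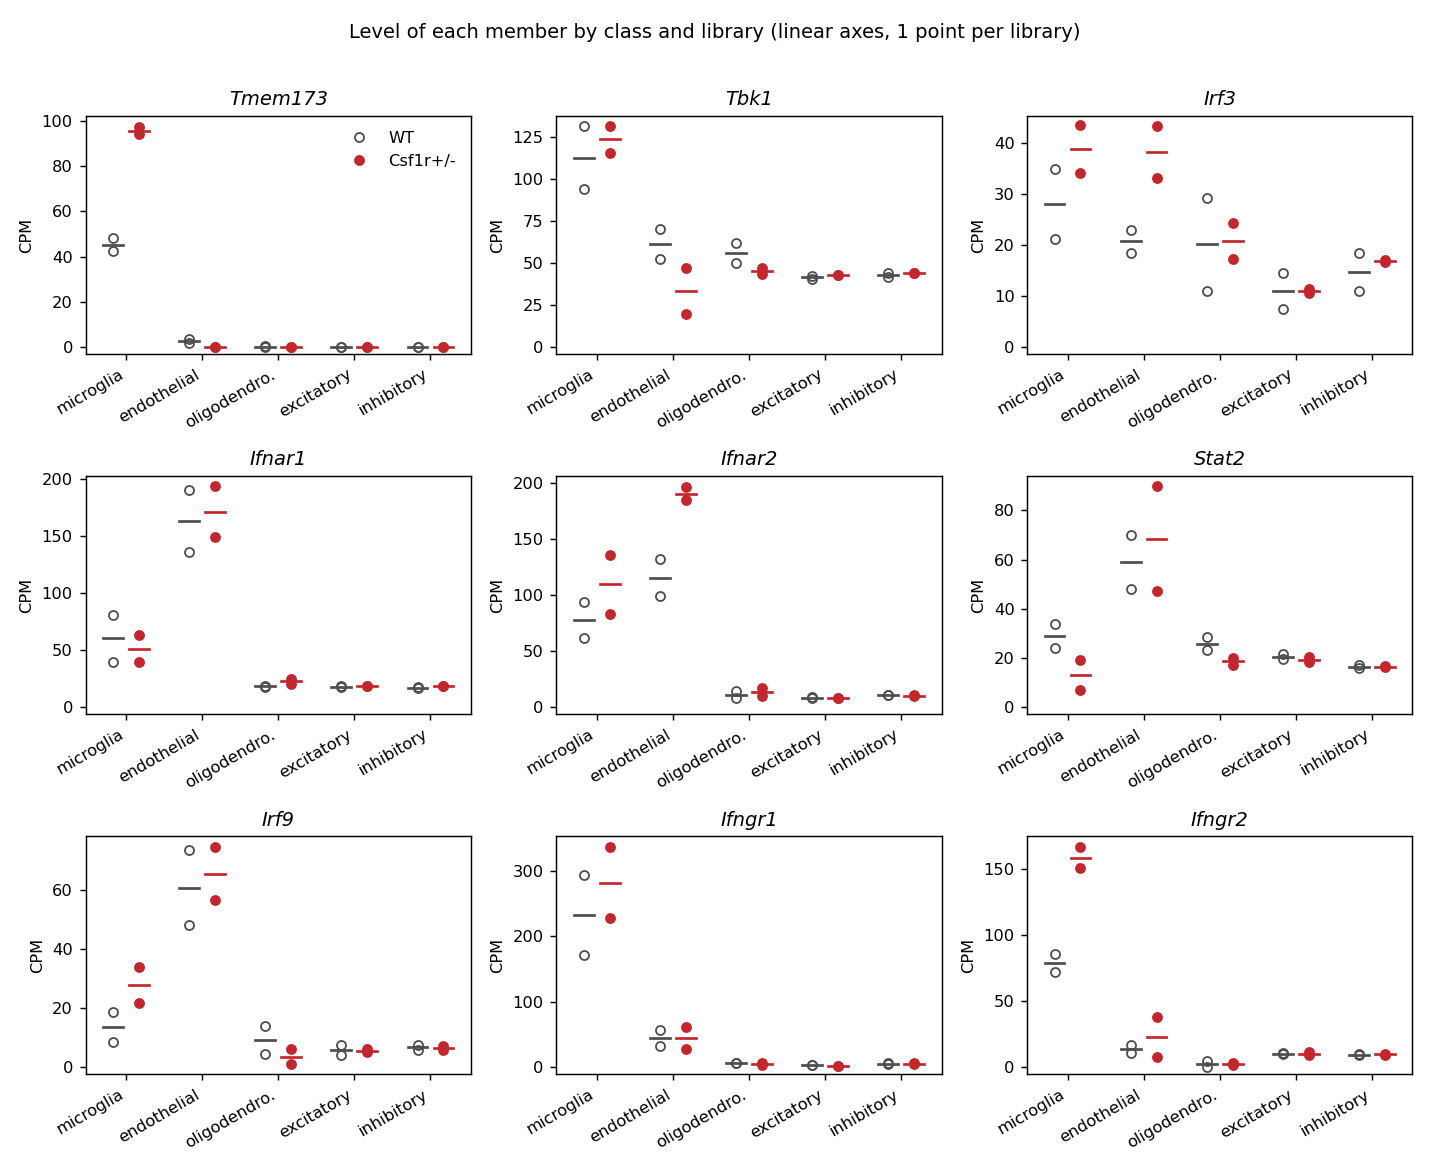
Level of each of the 9 genes (CPM, linear axes from 0, 1 panel per gene) in 5 classes of nuclei, with 1 point per library (open, WT; filled, Csf1r+/-) and a line at the mean of the 2 libraries. Of these 5 classes, Tmem173, Tbk1, Ifngr1 and Ifngr2 are highest in microglia, Ifnar1, Stat2 and Irf9 in endothelial nuclei, and for Tmem173 and Ifngr2 in microglia the filled points lie near 95.6 and 158 CPM against 45.3 and 78.9 CPM for the open ones.

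Single nuclei rarely held several of the transcripts at this depth. Of the 719 microglial nuclei, 36.2% had no UMI of any of the 9 genes, 38.0% had UMIs of 1 of them and none had more than 5, and of the 603 endothelial nuclei 41.3% had none. A pathway state of a single nucleus could therefore not be read, and all further comparisons are between sums per library.

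In microglial nuclei, Tmem173 and Ifngr2 were higher in both Csf1r+/- libraries than in both WT libraries, as their choice had fixed. Tmem173 had 10 and 18 UMIs in WT1 and WT2 and 26 and 20 in HET1 and HET2, or 42.5, 48.2, 94.0 and 97.2 CPM. The log2 fold change of Csf1r+/- over WT was 1.03 (SE 0.40), a fold of 2.04. Tmem173 (chr18:35733679-35740554, reverse strand) lies on the same chromosome as the targeted gene Csf1r (chr18:61100598-61132149), far from it. Whether the shared chromosome has a part in the Tmem173 difference was not tested. Ifngr2 had 17, 32, 46 and 31 UMIs, or 72.2, 85.7, 166 and 151 CPM, with a log2 fold change of 0.97 (SE 0.32), a fold of 1.95. For both genes the WT and Csf1r+/- libraries did not overlap on this scale.

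The partners of these genes in microglia differed in how far they moved. Ifngr1, the chain that pairs with Ifngr2, had 69 and 64 UMIs in the WT and 93 and 47 in the Csf1r+/- libraries (293, 171, 336 and 228 CPM), and the genotypes overlapped (0.29, SE 0.31). Tbk1, the kinase next to STING, had 31, 35, 32 and 27 UMIs (132, 93.7, 116 and 131 CPM) with a log2 fold change of 0.12 (SE 0.33). Irf3 had 5, 13, 12 and 7 UMIs with overlapping libraries (0.40, SE 0.53). Between them, the kinase and the factor thus had differences smaller than their errors.

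The type I arm in microglia rested on few counts. Ifnar1 had 19, 15, 11 and 13 UMIs in WT1, WT2, HET1 and HET2 (-0.23, SE 0.47) and Ifnar2 had 22, 23, 23 and 28 (0.48, SE 0.38), both with overlapping libraries. The 2 factors of ISGF3 pointed in opposite directions, without overlap in either. Stat2 had 8, 9, 2 and 4 UMIs, or 34.0, 24.1, 7.23 and 19.4 CPM (-1.17, SE 0.72), and Irf9 had 2, 7, 6 and 7 UMIs, or 8.49, 18.7, 21.7 and 34.0 CPM (0.86, SE 0.68).

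Counted together in microglia, 4 of the 9 genes did not overlap between genotypes, 3 of them higher in Csf1r+/- (Tmem173, Ifngr2, Irf9) and 1 lower (Stat2), where 39.3% of the 10060 genes with at least 10 UMIs did not overlap. Since the choice of the 9 used this contrast, nothing is read from this count. Over all genes, edgeR's quasi-likelihood fit put 344 (33 higher and 311 lower) past the study's limit, an unadjusted p under 0.01, and 1005 past 0.05, and none had an adjusted p under 0.05. DESeq2 also gave 0 genes at the adjusted threshold, with 196 at an unadjusted p under 0.05.

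Several measures of the microglial sums moved with genotype. Free RNA was taken as the profile of all nuclei outside the class in that library, scaled by neuronal markers. The part of UMIs so estimated was 28.9% in both WT libraries and 15.3% and 20.2% in the Csf1r+/- libraries. The 6 pan-neuronal markers summed to 2846 to 3261 CPM in WT and 1413 to 1890 CPM in Csf1r+/- microglia. With this estimate subtracted, the log2 fold changes were 0.82 for Tmem173 and 0.81 for Ifngr2. Oligodendrocyte markers summed to 5260 CPM in WT2 and to 955 to 1424 CPM in the other 3 libraries, and without WT2 the values were 1.12 and 1.10. Per 1000 UMIs of the 12 microglia markers, a scale chosen after seeing the data, Tmem173 stood at 2.86 and 5.07 in the WT and 5.34 and 6.51 in the Csf1r+/- libraries, a log2 ratio of means of 0.58, and Ifngr2 at 4.86, 9.01, 9.45 and 10.1 (0.49). On that scale WT2 lay next to the Csf1r+/- libraries for both genes.

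Border macrophages, which also hold Tmem173, Ifngr1 and Ifngr2, were looked for among the microglial nuclei by 7 markers. These summed to 155 to 157 CPM in WT and 249 to 272 CPM in Csf1r+/- microglial nuclei, nearly all of it Stab1 (31, 54, 65 and 55 UMIs). Cd163, Lyve1 and Pf4 were at 0 UMIs in all 4 libraries, F13a1 and Ms4a7 had 1 UMI each, and Mrc1 had 4, 4, 4 and 1. The part of these markers in the microglial differences was not tested.

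In endothelial nuclei, 0 of the 8 genes that could be tested passed an unadjusted p under 0.01, beside 2.39% of the 10654 genes tested (255 genes, 27 higher and 228 lower), and 0 passed an adjusted p under 0.05, beside 0.432%. At an unadjusted p under 0.05 the count was 1 of 8, Ifnar2, beside 6.86% of all genes. By DESeq2 the genes past 0.01 were 64, of which 0 were higher, and again 0 of the 8 were among them, also at an unadjusted p under 0.05. Of the 8, 3 did not overlap between genotypes (Ifnar2, Irf3 and Tbk1), beside 37.8% of all genes.

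Ifnar2, a chain of the type I receptor, had the lowest p. It had 63 and 27 UMIs in WT1 and WT2 and 39 and 50 in HET1 and HET2, or 132, 99.4, 184 and 196 CPM. Both Csf1r+/- libraries were above both WT libraries. The log2 fold change of 0.68 (SE 0.29) had an edgeR quasi-likelihood p of 0.0250 and an adjusted p of 0.599, which fails the correction. Its partner chain Ifnar1 stood at 190, 136, 194 and 149 CPM with overlapping genotypes (0.03, SE 0.29, adjusted p = 0.993).

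Tbk1 had 25 and 19 UMIs in the WT and 10 and 5 in the Csf1r+/- endothelial nuclei, or 52.3, 69.9, 47.2 and 19.6 CPM. The genotypes did not overlap, but the value of HET2 lay far under that of HET1, and the log2 fold change of -0.88 (SE 0.47) had an edgeR quasi-likelihood p of 0.0696 and an adjusted p of 0.783. Without HET2 it was -0.35, and without HET1 -1.63. Irf3 had 11, 5, 7 and 11 UMIs, or 23.0, 18.4, 33.1 and 43.2 CPM (0.84, SE 0.55, adjusted p = 0.873). With the cluster of mural markers left out, an alternative added after seeing the data, Irf3 was at 0.25, Ifnar2 at 0.80 and Tbk1 at -1.43.

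The remaining endothelial values overlapped between genotypes. Stat2 stood at 48.1, 69.9, 89.8 and 47.1 CPM (0.22, SE 0.41) and Irf9 at 48.1, 73.6, 56.7 and 74.6 CPM (0.16, SE 0.40). Ifngr1 had 27, 9, 13 and 7 UMIs (-0.13, SE 0.47) and Ifngr2 8, 3, 8 and 2 (0.57, SE 0.75). The estimated free RNA in endothelial nuclei was 24.6% and 42.7% in the WT and 12.4% and 12.3% in the Csf1r+/- libraries, and with it subtracted Ifnar2 was at 0.41.

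**Figure D2:**
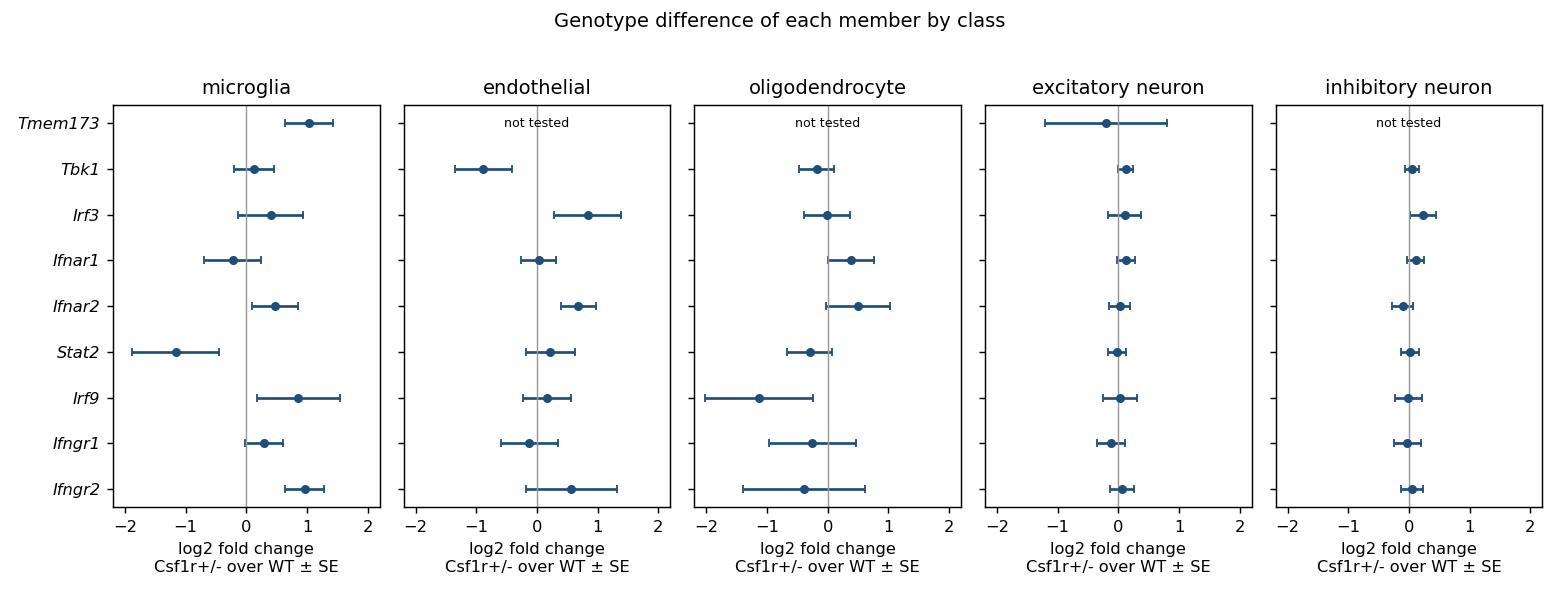
Log2 fold change of Csf1r+/- over WT with its SE (edgeR, 2 libraries per genotype) for each of the 9 genes, 1 panel per class. The errors are wide in microglia and endothelial nuclei (0.29 to 0.75) and in oligodendrocytes (0.29 to 1.0). They are narrow in neurons except for Tmem173 in excitatory neurons (1.0). The values lie from -1.17 to 1.03 in microglia and from -0.88 to 0.84 in endothelial nuclei. Genes under 10 UMIs are marked as not tested.

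In oligodendrocytes and neurons no member passed either threshold. In oligodendrocytes 0 of 8 tested genes were past an unadjusted p under 0.01, beside 3.1% of all genes, and 0 past an adjusted p under 0.05, beside 0.00795%. The log2 fold changes lay between -1.13 (Irf9, 9, 10, 1 and 4 UMIs) and 0.50 (Ifnar2), and the lowest edgeR quasi-likelihood p was 0.212. Their errors ran from 0.29 (Tbk1) to 1.0 (Ifngr2), so these values are loosely bounded. The oligodendrocytes of WT2 fell almost wholly into 2 clusters that held few nuclei of the other libraries, so that library stood apart in this class.

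The neurons gave the narrowest bounds, except for Tmem173 in excitatory neurons (15 UMIs, -0.20, SE 1.0). In excitatory neurons 0 of 9 genes were past an unadjusted p under 0.01, beside 0.503%, and 0 past an adjusted p under 0.05, beside 0%, with log2 fold changes of -0.20 to 0.13 and a lowest edgeR quasi-likelihood p of 0.376. In inhibitory neurons it was 0 of 8, beside 0.355%, and 0, beside 0%, with -0.10 to 0.23 and a lowest edgeR p of 0.313. No member reached an unadjusted p under 0.05 by edgeR in these 3 classes, beside 8.17% of all genes in oligodendrocytes, 3.2% in excitatory and 2.41% in inhibitory neurons. The genotypes did not overlap for 4 of the 8 tested members in oligodendrocytes, beside 36.2% of all genes, for 3 of 9 in excitatory neurons, beside 26.7%, and for 2 of 8 in inhibitory neurons, beside 25.9%. Tbk1, with 9462 UMIs in excitatory neurons, stood at 40.6 and 42.3 CPM in the WT and 42.8 and 42.9 CPM in the Csf1r+/- libraries (0.12, SE 0.13).

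Whether the genotype difference itself differed between microglial and endothelial nuclei was fitted in 1 model of the 8 sums with the library as a block. By edgeR's quasi-likelihood test, 0 of the 12718 genes had an adjusted p under 0.05 for this difference (0%). Since the choice of the members used the microglial side, only differences and errors are given for them. On simulated counts the same test found 45% of log2 changes of 1.5 at an unadjusted p under 0.01. Those changes were placed only in genes with more counts in both classes than several members had. Tmem173 had 2 and Ifngr2 21 UMIs in endothelial nuclei, and Stat2 had 23 and Irf9 22 in microglia. The 45% therefore does not apply to these members. In the measured counts 139 genes had an unadjusted p under 0.01, and with free RNA subtracted 58 genes of 11718 passed the adjusted threshold. For Tmem173 the difference, microglia minus endothelial, was 3.95 with an SE of 2.33, since its endothelial side holds 2 UMIs. It was 0.98 (SE 0.59) for Tbk1, -1.40 (SE 0.83) for Stat2, 0.81 (SE 0.80) for Irf9 and 0.41 (SE 0.79) for Ifngr2. A value that was high in one of the classes and not in the other is therefore not shown to differ between them.

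How much these values turn on the processing was followed gene by gene. Over 17 settings other than the reported one, the microglial log2 fold change of Tmem173 ran from 0.58 to 1.27 and that of Ifngr2 from 0.47 to 1.14, above 0 in all 17. The settings reuse the same 4 libraries and both genes were chosen for being higher in this contrast, so that the common sign was largely fixed by the choice and supports nothing. Stat2 in microglia ran from -1.91 to -0.44 over 16 settings, below 0 in all. In endothelial nuclei Ifnar2 ran from 0.41 to 0.89 and Tbk1 from -1.63 to -0.35, each on 1 side of 0 in all 17. Ifnar2 (0.01 to 0.82) and Irf9 (0.03 to 1.58) in microglia and Irf3 (0.25 to 1.0) in endothelial nuclei also kept 1 sign. As the settings reuse the same 4 libraries, a kept sign is no support for these genes either. In contrast, Ifnar1 and Ifngr1 changed sign in both classes, Tbk1 and Irf3 did so in microglia, and Stat2, Irf9 and Ifngr2 did so in endothelial nuclei.

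**Figure D3:**
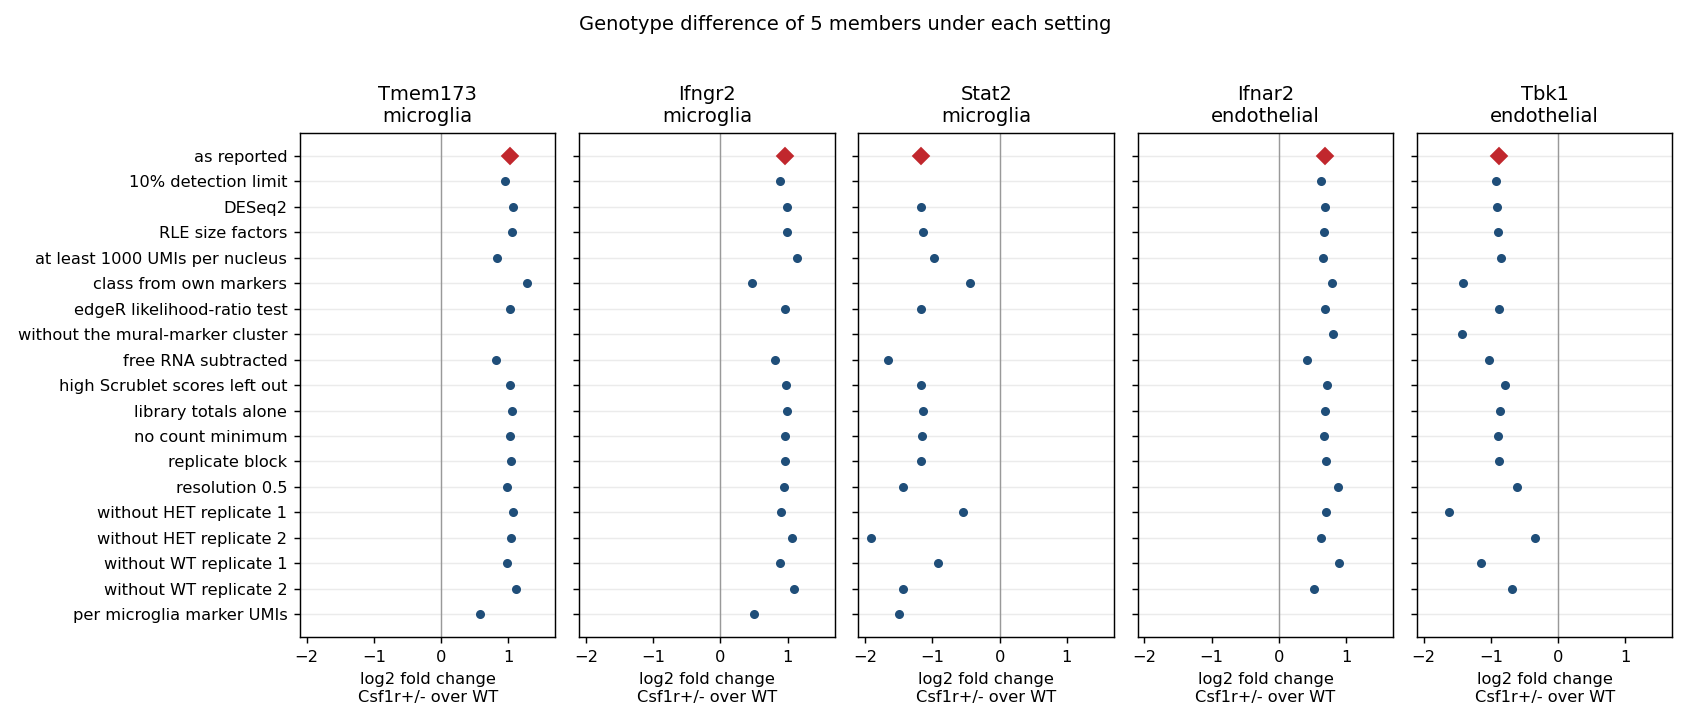
Log2 fold change of Csf1r+/- over WT for Tmem173, Ifngr2 and Stat2 in microglia and Ifnar2 and Tbk1 in endothelial nuclei under the reported setting (diamond) and each alternative that gave a value (points). None of the points crosses 0 in these 5 panels, and leaving out a Csf1r+/- library moves Stat2 (-1.91 to -0.55) and Tbk1 (-1.63 to -0.35) most. The panels are a selection, and other members, not drawn, crossed 0 in these classes.

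The wider pathway was followed with a list of 118 other genes, of which 117 were in the files. In microglial nuclei 26 of them had 0 UMIs, among them all 15 interferon genes, and 56 had enough counts to be tested. Of these 56, 0 were past an unadjusted p under 0.01 by edgeR's quasi-likelihood test, beside 3.42% of all genes, and 4 were past 0.05, beside 9.99%. By direction 37 were higher and 19 lower in Csf1r+/-, with a median log2 fold change of 0.22, beside -0.03 over all genes tested. The interferon-stimulated genes among them numbered 23, of which 15 were higher, with a median of 0.30. The median of the list was 0.42 without WT1, 0.11 without WT2 and 0.10 without HET1, and with free RNA subtracted it was 0.09.

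In endothelial nuclei the list was richer in counts and without a common direction. There 73 genes were tested, 0 were past an unadjusted p under 0.01 (beside 2.39%), 1 was past 0.05 (beside 6.86%), and 37 were higher and 36 lower, with a median of 0.00, beside 0.01 over all genes. Its interferon-stimulated genes held 5598 UMIs in endothelial nuclei and 1145 in microglial nuclei, and 40 of them were tested with a median of -0.01. All 15 interferon genes were at 0 UMIs here too. The direction of the list turned with the processing. With free RNA subtracted, 22 were higher and 50 lower with a median of -0.26. At resolution 0.5, 52 were higher and 21 lower (median 0.18), and with own markers 43 and 27 (0.17). The median was 0.26 without WT1 and -0.11 without WT2.

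Kinases and factors of the JAK-STAT group had differences that their errors leave uncertain in microglia and endothelial nuclei. In microglia the log2 fold changes were 0.46 for Stat3 (SE 0.31), 0.03 for Jak1 (SE 0.28), 0.15 for Jak2 (SE 0.35) and -0.03 for Tyk2 (SE 0.49), the last of these being the kinase bound to IFNAR1. In endothelial nuclei they were 0.30 for Stat3 (SE 0.33), 0.39 for Jak1 (SE 0.29), -0.07 for Jak2 (SE 0.31) and -0.29 for Tyk2 (SE 0.69). In oligodendrocytes and neurons the same 4 genes lay between -0.22 (Jak1 in oligodendrocytes) and 0.26 (Jak2 in excitatory neurons), and Stat4, tested in neurons alone, was at 0.06 and 0.19. None was past an unadjusted p under 0.05 by edgeR.

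Of the whole list, 2 results in the other classes were past an unadjusted p under 0.01 by edgeR, named here after their values were seen. Samhd1, which degrades deoxynucleotides and limits cytosolic DNA, had 6, 24, 24 and 13 UMIs in oligodendrocytes, or 9.48, 10.8, 24.2 and 20.5 CPM (1.22, SE 0.42, adjusted p = 0.286), 1 of 39 genes tested there (beside 3.1%). No listed gene passed this limit in oligodendrocytes with DESeq2, library totals alone, the 10% detection limit, the replicate block or own markers. Nor did any with at least 1000 UMIs per nucleus or with free RNA subtracted. With the likelihood-ratio test, RLE size factors, no count minimum, resolution 0.5 or high Scrublet scores left out, 1 gene passed it. Trim25, a ubiquitin ligase of the RNA-sensing branch, had 19, 16, 5 and 4 UMIs in excitatory neurons (-1.93, SE 0.52, adjusted p = 1.0), 1 of 90 genes tested there (beside 0.503%). These Trim25 counts came from 26346 nuclei, in which the endothelial marker Flt1 had 70, 81, 33 and 52 UMIs in WT1, WT2, HET1 and HET2. Free RNA was not estimated for neurons. No listed gene passed this limit in excitatory neurons with DESeq2, the 10% detection limit or own markers. With the other settings on all 4 libraries, 1 or 2 passed it. In inhibitory neurons 0 of 85 were past an unadjusted p under 0.01 by edgeR, beside 0.355%, and 1 was past 0.05, beside 2.41%.

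**Figure D4:**
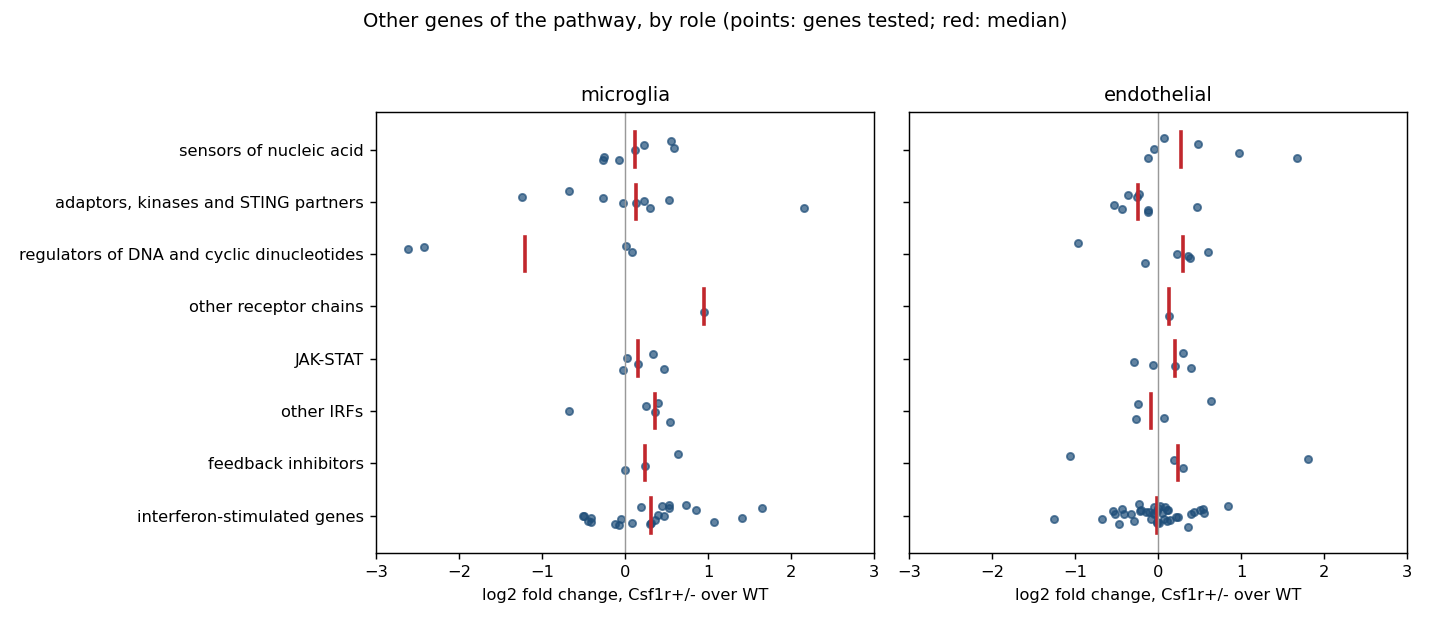
Log2 fold change of Csf1r+/- over WT of the other genes of the pathway that could be tested, 56 in microglia and 73 in endothelial nuclei, in rows by role (points, genes, with Ifih1 in 2 rows; red lines, median of the row). Interferon-stimulated genes centre at 0.30 in microglia and at -0.01 in endothelial nuclei, and single genes of low counts reach beyond 2 on either side in microglia.

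The profile of each member over 7 classes and 4 libraries (28 points) was compared with that of 15097 genes with at least 300 UMIs, by Pearson's r of log2(CPM + 10). These points share libraries and depth, so the values rank genes and test nothing. The astrocyte and oligodendrocyte precursor points rest on few nuclei, down to 6 and 8 in HET2, where single UMIs can move r. The nearest to Ifngr1 were Prkcd (0.91), Maml1 (0.89) and Snx13 (0.88), and to Ifngr2 Lacc1 (0.89), Ctsd (0.89) and Diaph2 (0.89). Nearest to Ifnar1 were 1110008F13Rik (0.97), Cggbp1 (0.97) and Ufc1 (0.95), and near to Ifnar2 were Pmepa1 (0.89) and the antigen-presentation gene B2m (0.89). Irf9 was nearest to Mrpl12 (0.95), Dnpep (0.94) and Cast (0.94), Stat2 to Actr10 (0.85), Wbp11 (0.84) and Supt16 (0.83), Irf3 to Prpf38a (0.89), Isca2 (0.87) and Ripk1 (0.86), and Tbk1 to Kat7 (0.83), Xrn2 (0.83) and Ppp4r3a (0.82). Tmem173, with 99 UMIs, was under the limit of 300. No member was among the 3 nearest genes of another.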

How the data were processed

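Matrices of UMI counts per gene and nucleus were deposited by the authors for each library, made with Cell Ranger on mm10 per the submitters' processing notes, and are not normalized. How overlapping genes were counted is not given in the sources used here. Nuclei were kept at 500 to 50000 UMIs, over 200 genes and under 5% mitochondrial UMIs, clustered with scanpy 1.11.5 (3000 variable genes, 30 components, Leiden resolution 1, mixed clusters again) and named from fixed marker lists. The members, gene lists and markers were chosen with earlier results of these data known. For each class, raw counts of its nuclei were added up by library and fitted in edgeR 4.0.16 by quasi-likelihood with TMM factors and genotype as the single term (two-sided), on all genes with at least 10 counts over the 4 libraries, with Benjamini-Hochberg adjustment over all of them, and the script was tested on simulated data. CPM are counts per 1000000 UMIs of the class in that library. DESeq2 1.42.0, other scalings, filters, class definitions and left-out libraries were alternatives, and doublets were left in except in one of these. Per the study each library came from 1 mouse. The p-values rest on the spread between 2 libraries per genotype, with the spread of each gene drawn towards that of all genes. Named were all 9 genes in every class, listed pathway genes past an unadjusted p under 0.01 in microglia or endothelial nuclei, the JAK-STAT group, and 3 genes per member by likeness. The alternatives without the mural-marker cluster, per microglia marker UMIs and for the pathway list were chosen after seeing the data. Of these, 1 gene of the JAK-STAT group and 1 gene of the likeness ranking are not reported here.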

Additional observations from a re-analysis of the deposited data

Results flagged for a closer look

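Tbk1 went in opposite directions in different classes with no overlap between genotypes. It was lower in both Csf1r+/- libraries of endothelial nuclei (61.1 CPM mean in WT, 33.4 in Csf1r+/-) and of oligodendrocytes (55.9 and 45.3 CPM) and higher in excitatory neurons (41.4 and 42.9 CPM). Non-overlap alone is common, at 37.8%, 36.2% and 26.7% of all genes in these classes, and none of the edgeR values passed a threshold (endothelial -0.88, SE 0.47; oligodendrocytes -0.18, SE 0.29; excitatory neurons 0.12, SE 0.13). The log2 fold change in excitatory neurons minus that in endothelial nuclei was 1.0, and the difference between these classes was not tested. Ifnar2 was higher in Csf1r+/- endothelial nuclei (115.6 and 190.3 CPM) and lower in inhibitory neurons (11.1 and 10.3 CPM, log2 -0.10, SE 0.17, where 25.9% of all genes did not overlap), a gap of 0.78 on the log2 scale that was not tested either.

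Outside the 5 classes compared, 3 pooled levels rested on few UMIs from classes too small to test. Ifngr1 stood at 304 CPM and Ifngr2 at 142 CPM in the 37 border macrophage nuclei, from 32 and 15 UMIs. Irf3 stood at 39.5 CPM in 56 astrocyte nuclei, from 5 UMIs.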

How the results depend on the processing

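At the study's threshold of p under 0.01, the genes counted by edgeR moved most. In microglia (344) they were 35 with DESeq2, 185 with the 10% detection limit, 534 with no count minimum, 58 with nuclei classed by their own markers, 66 with free RNA subtracted and 22 to 704 with 1 library left out. In endothelial nuclei (255) they were 64 with DESeq2, 83 with free RNA subtracted and 184 to 462 with 1 library left out. In oligodendrocytes (390) they were 87, 163 (10% limit), 122 (own markers), 104 (free RNA) and 212 to 664. In excitatory neurons (107) the likelihood-ratio test gave 276, DESeq2 186, the 10% limit 25, no minimum 258 and left-out libraries 115 to 543, and in inhibitory neurons (71) the values were 165, 35 with library totals alone, 1 with the 10% limit, 171 with no minimum and 96 to 494. The cause was not tested.

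The microglial count of members past it is not given, since their choice used this contrast. In endothelial nuclei 0 became 1 (Ifnar2) at resolution 0.5 and 2 (Ifnar2, Tbk1) with own markers, and in inhibitory neurons 0 to 1 with 1 library left out (Irf3 without WT2, 0.61). Listed pathway genes past the threshold stayed between 0 and 3 in microglia, 0 and 1 in endothelial nuclei and 0 and 2 elsewhere.

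These signs turned. Ifnar1 in endothelial nuclei was -0.029 with the 10% limit, -0.15 with at least 1000 UMIs, -0.0035 without high Scrublet scores, -0.25 with free RNA subtracted, -0.011 without the mural cluster and -0.19 to 0.28 with 1 library left out. With free RNA subtracted, endothelial Stat2 was -0.016 and Irf9 -0.12, and with 1 library left out they ran from -0.32 to 0.63 and from -0.20 to 0.46. Endothelial Ifngr2 was -0.052 with own markers and -0.88 to 1.35 with 1 library left out, and Ifngr1 ran from -0.80 to 0.37. Ifnar2 in oligodendrocytes was -0.0038 with own markers and -0.10 to 0.81, and Irf3 ran from -0.26 to 0.56 in excitatory and from -0.071 to 0.61 in inhibitory neurons, the low end without WT1. In microglia, where no test was made, Tbk1 was at -0.29 and Ifngr1 at -0.13 per microglia marker UMIs, each below 0 in 3 of 17 settings, Irf3 at -0.41 with own markers and Ifnar1 at 0.32 without WT1. The log2 ratio of microglia to endothelial nuclei was 6.38 for Tmem173 and -1.16 for Ifnar2 with own markers, and 5.0 to 6.80 for Tmem173 with 1 library left out.

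The labels number the libraries of each genotype 1 and 2 and do not say that equal numbers mark pairs. Deviations of same-numbered libraries from their genotype means correlated at -0.005 to 0.141 over the classes. With 2 libraries per genotype both pairs give the same value, which cannot show whether equal numbers mark a shared batch. With the replicate block, the genes past the threshold were 410 in microglia, 361 in endothelial nuclei and 134 in inhibitory neurons. The members past it stayed at 0 in endothelial nuclei. With 2 libraries per genotype and 2 to 273 UMIs per member in microglia and endothelial nuclei, depth limits every value here.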

Other observations

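The border macrophage nuclei held Tmem173 in 5 of 37 nuclei, with 6 UMIs of which 5 came from HET1, and a genotype contrast was not made. Oligodendrocyte precursors (155 nuclei) and astrocytes (56 nuclei) held 0 Tmem173 UMIs, which allows up to 3 counts, while Tbk1 was counted in both, with 34 and 8 UMIs.

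The 2 microglial clusters, of 337 and 382 nuclei, had unequal levels of several members, which were not tested. Tmem173 was at 72.1 and 62.9 CPM in them (42 and 32 UMIs) and Ifngr2 at 137 and 90.4 CPM (80 and 46). Stat2 was at 13.7 and 29.5 CPM (8 and 15 UMIs) and Irf9 at 12 and 29.5 CPM (7 and 15). By the marker rule the first cluster had 1 raised oligodendrocyte marker and the second had 7. The first cluster held 43.9% and 59.4% of the microglial nuclei of WT1 and WT2 and 46.0% and 34.2% of those of HET1 and HET2.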
